A study of Mus musculus with 5 samples.

Results

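The genes described here encode the subunits of the mitochondrial respiratory complexes I to IV, the subunits of ATP synthase and a few assembly factors of complex I, measured in mouse back skin after UVB. They were chosen by gene symbol: every gene probe whose platform symbol begins with Nduf, Uqcr or Atp5, or with Cox followed by a digit of 4 to 8, or is Sdha, Sdhb, Sdhc or Sdhd. The rule matched 98 probes, of which 93 carried 1 gene symbol and named 83 genes of the 18467 named genes on the arrays. The other 5 probes carried several symbols and are not counted as members. By role, 31 members were complex I subunits or their close relatives, 7 complex I assembly factors, 4 complex II subunits, 8 complex III subunits, 16 complex IV subunits and 16 ATP synthase subunits, and 1 was the pseudogene Ndufs5-ps. The complex IV genes include 3 forms used mainly by heart and skeletal muscle, Cox6a2, Cox7a1 and Cox8b, which are set apart from the other 13. Brown fat expresses Cox7a1 and Cox8b as well.

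The labels give 5 groups of hairless albino mice with 1 array each. Xpa mutants received UVB at 1 kJ per square metre and were sampled 3 h and 24 h later, as were wild-type (WT) mice, which were also sampled without UVB. Xpa mutant skin without UVB was not analysed here, and the labels give neither the ages nor whether an array held 1 mouse or a pool. XPA is a protein of nucleotide excision repair, which removes the DNA lesions that UVB makes, and the labels do not say which mutation the animals carry. With 1 array per group no difference below has a test, an error or a replicate check: each compares 2 arrays, and the animal, the piece of skin and the hybridization cannot be told apart from the group.

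Each array had from 23.5% to 25.1% of its gene probes above background, meaning that the scanner software had not given them its low-signal flag. The Xpa gene itself had log2 levels of 6.64 and 6.42 on the mutant arrays 3 h and 24 h after UVB, against 7.49, 7.13 and 7.55 on the WT arrays without UVB, at 3 h and at 24 h. The low-signal flag was absent for Xpa on the WT arrays without UVB and at 24 h and present on the other 3. As a measure of technical noise alone, 30 spiked control probes with 10 spots each had a median SD between spots of 0.14 on the log2 scale.

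The respiratory chain lies in the inner mitochondrial membrane. Complexes I and II pass electrons from NADH and succinate to ubiquinone, complex III passes them on to cytochrome c, and complex IV gives them to oxygen. Complexes I, III and IV pump protons, and ATP synthase uses the return of these protons to make ATP. Most of the subunits are encoded in the nucleus, and the mRNAs of these are present in most cell types. A few complex IV subunits come in a general form and a second form used by striated muscle. Mouse back skin lies on a thin sheet of skeletal muscle, the panniculus carnosus, so a skin sample can hold muscle fibres as well as epidermis, dermis and fat.

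Most members were well measured in skin. Of the 83, 73 were above background on all 5 arrays, 3 on some arrays and 7 on none. The 7 were Cox4i2, a lung and hypoxia form of subunit 4, the testis form Cox7b2, the complex III genes Uqcrc1, Uqcrq and Uqcr10, the assembly factor Ndufaf8, and Ndufs5-ps. A probe that stays dim in every sample says nothing about its mRNA beyond a bound, and no fold is given for these genes. The 3 measured on some arrays were Ndufb3 on 4 arrays, and Ndufab1 and Ndufaf6 on 2 arrays each.

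The levels of the 73 members changed little over the arrays. The difference between a member's highest and lowest array had a median of 0.30 on the log2 scale and was under 0.5 for 63 of the 73 members. Over all 4644 genes above background on the 5 arrays it had a median of 0.45 and was under 0.5 for 2666. Ndufa11, an accessory subunit of complex I, had the smallest range, 0.06, with levels of 9.34 and 9.30 on the mutant arrays 3 h and 24 h after UVB, against 9.33, 9.29 and 9.28 on the WT arrays without UVB, at 3 h and at 24 h. Cox7a1 had the largest, 1.22. The median level of the 73 members was 10.0 and 9.89 on the mutant arrays 3 h and 24 h after UVB, against 9.96, 10.0 and 9.82 on the WT arrays without UVB, at 3 h and at 24 h.

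Among the members above background on both arrays, the lowest in WT skin at 24 h against no UVB were the 3 muscle forms of complex IV subunits. Cox7a1, the muscle form of subunit 7a, had a log2 level of 7.58 on the WT array at 24 h, against 8.62 on the unirradiated WT array, a difference of -1.04 or 2.05-fold lower. It had 8.80 at 3 h and 8.35 at 24 h in mutant skin, and 8.55 in WT skin at 3 h. The WT array at 24 h was the lowest of the 5, and the mutant array at 24 h the next lowest.

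Cox8b, the muscle form of subunit 8, followed the same order at the low end. Its log2 level was 9.81 on the WT array at 24 h, against 10.52 on the unirradiated WT array, which is 1.64-fold lower. It stood at 10.64 and 10.36 on the mutant arrays 3 h and 24 h after UVB, and at 10.62 in WT at 3 h. Cox6a2, the muscle form of subunit 6a, had 8.15 on the WT array at 24 h, against 8.83 on the unirradiated WT array, 1.60-fold lower. It had 8.93 and 8.44 on the mutant arrays 3 h and 24 h after UVB, and 8.80 in WT at 3 h. In each of these genes both arrays at 24 h lay below the other 3, and the WT array lay below the mutant one. The fold of Cox7a1 depends on how background is treated: without background correction its log2 difference was -0.83.

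Of the general forms of the same 3 subunits, 2 were higher in WT at 24 h against no UVB and 1 was lower. Cox6a1 had a log2 level of 11.79 on the WT array at 24 h, against 11.52 on the unirradiated WT array, a difference of 0.27. Cox8a had 10.18 on the WT array at 24 h, against 10.05 on the unirradiated WT array, a difference of 0.13. Cox7a2 was lower, with 9.84 on the WT array at 24 h, against 10.24 on the unirradiated WT array, a difference of -0.40. Set against its general form in this comparison, the difference of the muscle form was lower by a further -0.95 for Cox6a2, -0.84 for Cox8b and -0.63 for Cox7a1 on the log2 scale.

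**Figure D1:**
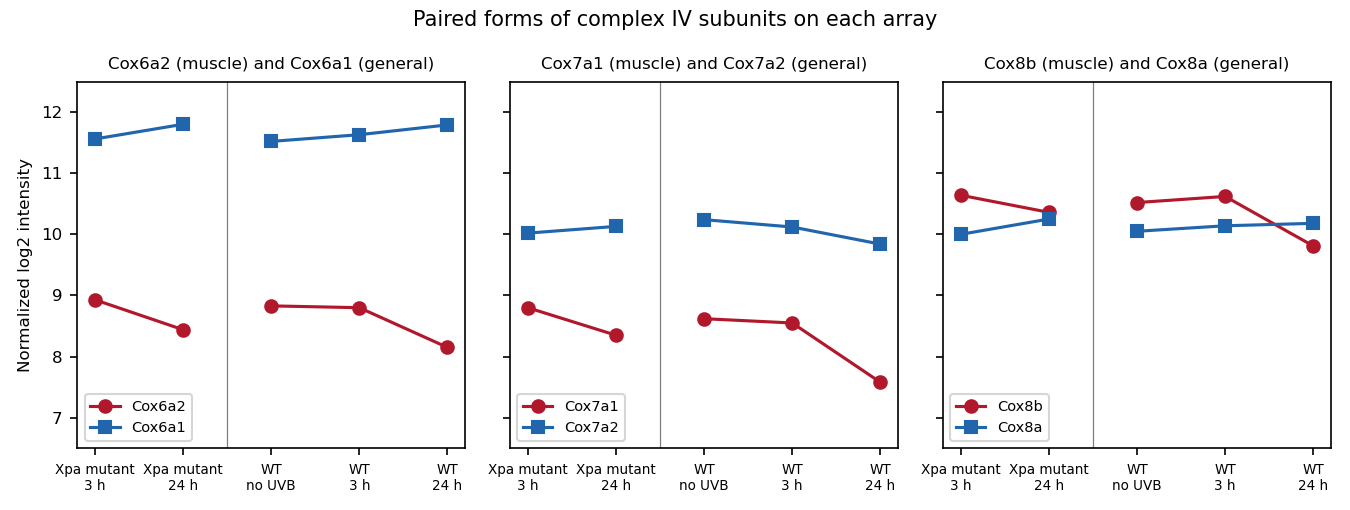
Normalized log2 intensity of the muscle form (red circles) and the general form (blue squares) of complex IV subunits 6a, 7a and 8 on each of the 5 arrays, with the Xpa mutant arrays left of the WT arrays and 1 point per array. Lines join the times of a genotype; levels of different probes cannot be compared with each other, and the muscle forms are lower on both arrays at 24 h.

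The level of skeletal muscle mRNA moved with these genes. Of 26 skeletal muscle markers 23 were on the arrays, and 22 or 23 of them were above background on each array. Their summed intensity on the mutant arrays was 97083 at 3 h and 59044 at 24 h. On the WT arrays it was 88972 without UVB, 81751 at 3 h and 51572 at 24 h. The median log2 difference of the 23 markers between WT at 24 h and WT without UVB was -0.89, with 15 lower by at least 1.5-fold and none higher. Myl1, a fast myosin light chain, had a log2 level of 9.58 on the WT array at 24 h, against 11.34 on the unirradiated WT array. Some other lists were lower too in this comparison. Fibroblast and matrix markers had a summed intensity of 11372, against 26453, with 7 of 8 markers below 0. Differentiated keratinocyte markers had 17320, against 37811, with all 7 below 0. Other lists were higher, such as macrophage markers at 2502, against 1087. The part of muscle content in the lower Cox6a2, Cox7a1 and Cox8b was not tested, and in such whole-tissue samples fewer muscle fibres and less RNA per fibre cannot be told apart.

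Markers of fat, another tissue rich in mitochondria in its brown form, gave a smaller difference than those of muscle. The median log2 difference of 11 adipocyte markers was -0.43 between WT at 24 h and WT without UVB, and their summed intensity was 11460, against 16600. Adipoq, the adiponectin gene, had a log2 level of 10.11 on the WT array at 24 h, against 11.03 on the unirradiated WT array. Lep and Lipe were not above background on any array. Among the brown fat markers, Ucp1, the uncoupling protein that defines brown adipocytes, and Ppargc1a were not above background on any array. Cidea and Elovl3, which sebaceous glands also express, were higher on the WT array at 24 h by 0.29 and 0.93 on the log2 scale, and the summed intensity of the brown fat list was 1893, against 1192 on the unirradiated WT array. What these markers contribute was not tested.

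The start regions of Cox8b and Cox7a1 and of the general forms Cox8a, Cox7a2 and Cox6a1 are shown so that the sequence of each can be read beside its level. They are the RefSeq windows of GRCm38.p6 from 250 bases before to 50 bases after the annotated gene start, 300 bases each, written 5′ to 3′ on the gene's strand. Capitals mark matches, on either strand, to GCGCANGCG (bound by NRF1), CCGGAAG (ETS factors), AAGATGGC (YY1), AAGGTCA (oestrogen-related receptors), CAGCTG (an E-box used by myogenic factors) or TATAAA (the TATA box). The windows are chr7:140900397-140900696 on the minus strand for Cox8b, chr7:30183921-30184220 on the plus strand for Cox7a1, chr19:7217567-7217866 on the minus strand for Cox8a, chr9:79759804-79760103 on the minus strand for Cox7a2, and chr5:115348909-115349208 on the minus strand for Cox6a1.
Cox8b: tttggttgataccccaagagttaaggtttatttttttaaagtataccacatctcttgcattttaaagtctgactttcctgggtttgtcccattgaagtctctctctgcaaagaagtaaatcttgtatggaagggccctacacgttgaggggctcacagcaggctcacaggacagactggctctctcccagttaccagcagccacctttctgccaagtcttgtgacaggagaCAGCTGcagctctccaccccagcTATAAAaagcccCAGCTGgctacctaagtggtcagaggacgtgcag
Cox7a1: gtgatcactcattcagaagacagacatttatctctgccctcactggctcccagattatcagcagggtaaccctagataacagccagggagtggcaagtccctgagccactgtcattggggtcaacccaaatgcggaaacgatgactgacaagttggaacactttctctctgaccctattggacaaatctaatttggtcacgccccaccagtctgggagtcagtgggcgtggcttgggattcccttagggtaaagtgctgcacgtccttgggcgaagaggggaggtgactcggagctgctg
Cox8a: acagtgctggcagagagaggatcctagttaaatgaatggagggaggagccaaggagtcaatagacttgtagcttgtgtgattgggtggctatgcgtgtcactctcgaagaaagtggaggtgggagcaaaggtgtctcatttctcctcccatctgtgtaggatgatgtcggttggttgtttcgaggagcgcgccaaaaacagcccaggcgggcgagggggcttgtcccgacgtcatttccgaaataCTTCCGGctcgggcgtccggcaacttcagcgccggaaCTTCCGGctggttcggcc
Cox7a2: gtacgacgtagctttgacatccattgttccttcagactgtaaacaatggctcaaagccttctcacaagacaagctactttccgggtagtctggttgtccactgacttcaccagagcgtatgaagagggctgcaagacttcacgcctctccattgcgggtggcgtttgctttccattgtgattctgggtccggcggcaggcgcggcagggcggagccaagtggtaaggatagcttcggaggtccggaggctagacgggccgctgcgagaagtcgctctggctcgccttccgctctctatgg
Cox6a1: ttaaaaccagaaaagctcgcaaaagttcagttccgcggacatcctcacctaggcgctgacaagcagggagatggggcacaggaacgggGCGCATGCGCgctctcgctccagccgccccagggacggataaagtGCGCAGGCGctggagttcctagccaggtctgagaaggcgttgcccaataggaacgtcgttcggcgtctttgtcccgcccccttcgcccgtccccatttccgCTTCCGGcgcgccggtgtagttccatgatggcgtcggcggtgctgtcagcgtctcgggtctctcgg
The Cox8b window holds an E-box on each side of a TATA box, while the windows of Cox7a1 and of its general form Cox7a2 both hold none of the 6 motifs. The Cox8a window holds the ETS motif on the minus strand, and the Cox6a1 window the NRF1 and ETS motifs. In these windows no match overlapped a match to another motif. A match is only a run of letters and does not show that a factor binds there.

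Over the members in the RefSeq promoter table, 67 of the 83, the motifs of the factors known for nuclear respiratory genes were common. The NRF1 motif was found in the windows of 20 members (29.9%), against 7.03% of all 27025 genes in the table. The ETS motif was found in 18 (26.9%), against 9.93% of all genes, and the YY1 motif in 9 (13.4%), against 3.19%. The motif of the oestrogen-related receptors was found in 7 (10.4%), against 5.38%. The E-box and the TATA box were found in 4 (5.97%) and 8 (11.9%) members, against 18.3% and 15.7% of all genes. The median GC content was 58.5% over 72 member windows, against 52.7% over all 32851, and the part of base composition in the shares of GC-rich motifs was not tested.

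The question of the first comparison was what 3 h after UVB did to WT skin, and the members as a group barely moved. Their median log2 difference, over the 75 above background on at least 1 of the 2 arrays, was -0.03, and that of all 7148 genes compared was also -0.03. A member was counted as higher or lower when it differed by at least 1.5-fold, a log2 difference of 0.58. None was higher and 1 was lower by this measure, beside 6.58% of all genes compared that were higher and 6.35% that were lower.

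The member that was lower at 3 h was Ndufab1, the mitochondrial acyl carrier protein, which is also a complex I subunit. Its log2 level in WT skin was 6.73 at 3 h, with the low-signal flag, against 7.81 without UVB. Because the dimmer array gives only a bound, it was at least 1.67-fold lower. It had 7.52 and 7.06 on the mutant arrays 3 h and 24 h after UVB and 7.10 in WT at 24 h, and carried the low-signal flag on all arrays but the unirradiated WT array and the mutant array at 3 h. A second probe of Ndufab1 was dim on all 5 arrays, and the mean of both probes gave -0.56 for this difference.

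Among the members above background on both arrays, the 3 highest were complex I assembly factors. Ndufaf4 had a log2 level of 8.33 on the WT array at 3 h, against 7.85 on the unirradiated WT array, a difference of 0.49. Ndufaf5 and Ndufaf3 differed by 0.29 and 0.19, and the 5 assembly factors compared had a median of 0.19, with 3 above 0, 2 below and Ndufaf7 lowest at -0.17. The next highest were Ndufa3, an accessory subunit, at 0.17 and Cox4i1, the general form of subunit 4, at 0.16.

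At the low end stood 4 subunits of complex I and 1 of ATP synthase. Ndufb7, an accessory subunit of the membrane arm, had a log2 level of 7.30 on the WT array at 3 h, against 7.78 on the unirradiated WT array, a difference of -0.49. Atp5a1, the alpha subunit of ATP synthase, differed by -0.34. Ndufv2 and Ndufv1, which take electrons from NADH, differed by -0.30 and -0.26, and the accessory subunit Ndufa10 by -0.24. All of these lie inside 1.5-fold. For Ndufb7, near background, the difference was -0.23 without background correction, and for Atp5a1 it was -0.12 when arrays were scaled to their medians in place of quantile normalization.

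The 4 subunits of complex II, which oxidizes succinate, were all slightly lower at 3 h. Sdha, its flavoprotein, had a log2 level of 9.82 on the WT array at 3 h, against 9.96 on the unirradiated WT array. Sdhb, which carries the iron-sulfur clusters, had 9.22, against 9.30. The membrane anchors Sdhc and Sdhd had 9.16 and 8.82 at 3 h, against 9.32 and 8.91 without UVB. The differences ran from -0.16 to -0.08, close to the 0.14 spread between spots of a control probe. Medians of the other complexes were -0.03 for complex I, -0.04 for complex III, -0.01 for the general complex IV genes and -0.03 for ATP synthase.

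At 24 h in WT skin the members without the muscle forms were again close to their unirradiated level. The median log2 difference of 76 members was -0.06, and -0.05 without the muscle forms, beside 0.00 over all 7268 genes compared. Higher by at least 1.5-fold was 1 member, beside 8.42% of all genes, and lower were 4, beside 8.76% of all genes. The 4 were Cox7a1, Cox8b, Cox6a2 and Ndufab1, which had a bound of at least 1.64-fold lower, so 1 was left when the muscle forms were set apart. The higher one was Ndufaf6, an assembly factor, with a log2 level of 7.39 on the WT array at 24 h, against 6.61 on the unirradiated WT array, where it was not above background. It was at least 1.30-fold higher.

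After the muscle forms, the lowest members above background on both arrays at 24 h were Cox7a2 and Ndufs1. Ndufs1, the largest core subunit of complex I, had a log2 level of 7.96 on the WT array at 24 h, against 8.33 on the unirradiated WT array, a difference of -0.37. The highest above background on both arrays was Ndufaf4, with 8.26, against 7.85, a difference of 0.41. Atp5d, the delta subunit of ATP synthase, differed by 0.30, Sdhd by 0.28, and Atp5pb, the peripheral stalk subunit b, by 0.27. The 3 other complex II genes were lower or level at 24 h. Sdha had 9.70 on the WT array at 24 h, against 9.96 on the unirradiated WT array. Sdhb had 9.19, against 9.30, and Sdhc 9.30, against 9.32. Of the 4 complex II genes 1 was thus above 0 and 3 below, which with 1 array per group was not tested.

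**Figure D2:**
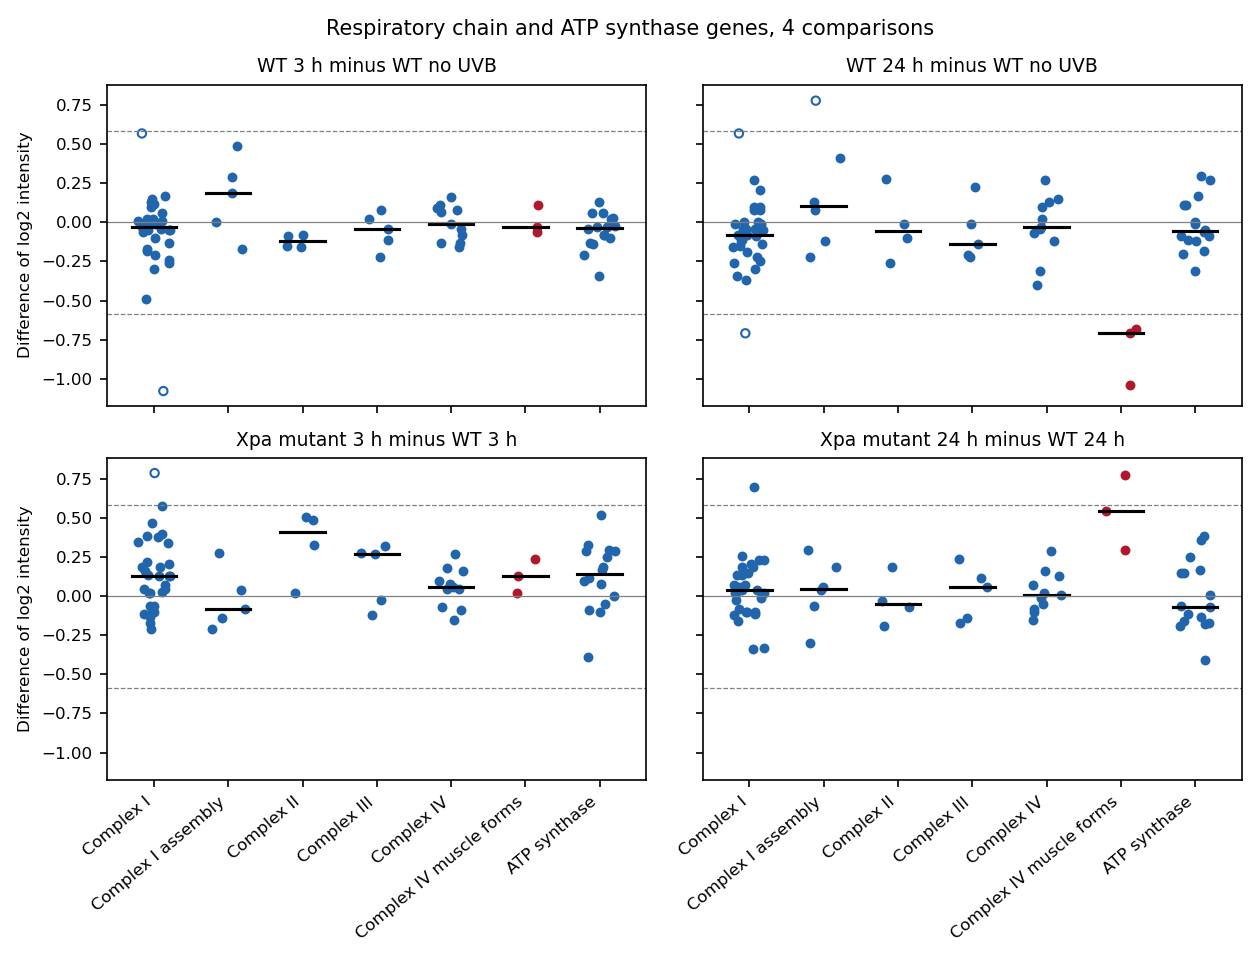
Difference of normalized log2 intensity (vertical axis) of each member compared, by complex (horizontal axis), in 4 comparisons of 2 arrays each. Filled points were above background on both arrays and open points on 1, red marks the muscle forms, black bars are medians and dashed lines 1.5-fold; the red points stand below the other filled points in WT at 24 h and above most points in the mutant against WT at 24 h.

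The next question was how Xpa mutant skin differed from WT skin at the same time after UVB. At 3 h most members were slightly higher in the mutant. The median log2 difference of 75 members was 0.12, with 55 above 0 and 20 below, beside a median of 0.01 over all 6863 genes compared, of which 3547 were above 0. Higher by at least 1.5-fold was 1 member, beside 3.95% of all genes, and none was lower, beside 5.09% of all genes. The 1 was Ndufab1, at least 1.37-fold higher, with the dim WT array and the second probe described above.

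Complex II and complex III had the highest medians at 3 h. Sdhc had a log2 level of 9.67 on the mutant array at 3 h, against 9.16 on the WT array, a difference of 0.51. Sdhd had 9.30 on the mutant array, against 8.82 on the WT array, a difference of 0.49. Sdhb had 9.55 on the mutant array, against 9.22 on the WT array, and Sdha 9.84, against 9.82. The median of the 4 was 0.41 and all 4 were above 0, with Sdha level. Sdhb lies on the same chromosome as Xpa, as do Uqcrh, Ndufaf4 and Ndufaf6.

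In complex III the median of the 5 genes compared, of 8 members, was 0.27. Above 0 were 3, and 2 were below, Uqcrb at -0.12 and Uqcr11 at -0.02. Uqcrc2, a core protein, had a log2 level of 10.32 on the mutant array at 3 h, against 10.00 on the WT array. Uqcrfs1, the Rieske iron-sulfur protein, had 10.12, against 9.84, and Uqcrh, the hinge protein, 11.94, against 11.67. A second Uqcrh probe, also above background on all 5 arrays, differed by 0.09. Medians were 0.13 for 31 complex I subunits, of which 23 were above 0, and 0.14 for 16 ATP synthase genes, of which 12 were. The general complex IV genes had a median of 0.06.

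Single members above background on both arrays went further than these medians at 3 h. Ndufb7 had a log2 level of 7.88 on the mutant array, against 7.30 on the WT array, a difference of 0.58 that lay just under the 1.5-fold line and was 0.39 without background correction. Ndufv2 differed by 0.47. Atp5c1, the gamma subunit that turns inside the ATP synthase head, had 9.70 on the mutant array, against 9.18 on the WT array, a difference of 0.52. A second Atp5c1 probe that was dim on all arrays turned this to -0.15 when both probes were averaged. The lowest was Atp5md, a small membrane subunit of ATP synthase, with 10.10 on the mutant array, against 10.49 on the WT array, a difference of -0.39. Ndufaf4 and Ndufa1 differed by -0.21 each, Ndufa3 by -0.17 and Cox8a by -0.15.

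Markers of muscle and fat were also higher on the mutant array at 3 h. The skeletal muscle markers had a median log2 difference of 0.37, with 3 of 23 higher by at least 1.5-fold, and a summed intensity of 97083, against 81751 on the WT array. The adipocyte markers had a median of 0.23 and a summed intensity of 17089, against 14248. The muscle forms differed by 0.24 for Cox7a1, 0.13 for Cox6a2 and 0.02 for Cox8b. Hair follicle markers, keratins and trichohyalin of the growing hair, had a summed intensity of 5623 on the mutant array, against 2074 on the WT array. The part of cell content in the higher median of the members was not tested.

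At 24 h the members of mutant and WT skin had nearly the same median. The median log2 difference of 75 members was 0.02, with 43 above 0 and 32 below, beside 0.00 over all 7104 genes compared. Higher by at least 1.5-fold were 2 members, beside 6.66% of all genes, and none was lower, beside 8.18% of all genes. The 2 were Cox7a1, with 8.35 on the mutant array, against 7.58 on the WT array, 1.71-fold higher, and Ndufs3.

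Ndufs3, a core subunit of the electron input arm of complex I, had a log2 level of 9.20 on the mutant array at 24 h, against 8.50 on the WT array, 1.63-fold higher. On the mutant array at 3 h it had 8.49, and on the WT arrays 8.72 without UVB and 8.59 at 3 h. The mutant array at 24 h stood above all the others. The 2 probes of Ndufs3 disagreed. The second, also above background on all 5 arrays, differed by 0.16 between mutant and WT at 24 h, with 7.83 against 7.67, and the mean of both probes by 0.43.

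The muscle forms were all higher in the mutant than in WT at 24 h. Cox8b differed by 0.55 and Cox6a2 by 0.30, while their general forms differed by 0.07 for Cox8a and 0.02 for Cox6a1, with -0.01 and -0.25 in the authors' deposited table. Cox7a2, the general partner of Cox7a1, differed by 0.29. The skeletal muscle markers had a median log2 difference of 0.37 in this comparison, with 6 of 23 higher by at least 1.5-fold and none lower, and a summed intensity of 59044, against 51572 on the WT array. Markers of some other cell types were higher as well, and those of others were lower. The 8 fibroblast and matrix markers were all above 0, with a median of 0.59 and a summed intensity of 20869, against 11372 on the WT array. The 4 hair follicle markers compared were above 0, with a median of 1.29. Of 7 basal keratinocyte markers 6 were below 0, with a median of -0.46. Of 7 differentiated keratinocyte markers 6 were below 0 as well, with a median of -0.43. Mybpc2, the fast myosin binding protein, had a log2 level of 10.85 on the mutant array, against 9.83 on the WT array, whereas Acta1, skeletal actin, had 13.69, against 13.97. The part of tissue content in the higher muscle forms was not tested.

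The other members at the ends of this comparison were ATP synthase and complex I genes. Atp5md had a log2 level of 10.57 on the mutant array at 24 h, against 10.18 on the WT array, a difference of 0.39, which is opposite in sign to the difference at 3 h. Atp5e, the epsilon subunit, differed by 0.36. Atp5a1 was lowest, with 11.07 on the mutant array, against 11.49 on the WT array, a difference of -0.41. Ndufs4, an accessory subunit of the input arm, differed by -0.34, Ndufa4l2, the relative of Ndufa4 that hypoxia induces, by -0.33, Ndufaf3 by -0.30 and Atp5g2, a ring subunit of ATP synthase, by -0.19. Complex II no longer stood high. Sdha differed by 0.19, Sdhb by -0.03, Sdhc by -0.07 and Sdhd by -0.19.

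From 3 h to 24 h the median of the members was slightly below 0 in both genotypes. In the mutant the median log2 difference of 76 members, 24 h minus 3 h, was -0.12, with 24 above 0 and 52 below, beside 0.03 over all 7090 genes. In WT it was -0.05 over 75 members, with 28 above 0 and 47 below, beside 0.03 over all 7120 genes. The complexes differed in WT, with medians of 0.10 for ATP synthase and 0.06 for complex II. Complex I subunits had -0.06, complex III -0.03 and the general complex IV genes -0.01. In the mutant 2 members were higher by at least 1.5-fold, beside 9.61% of all genes, and 1 was lower, beside 10.4%. The count of lower members depends on the processing, with 5 under median scaling, 4 under cyclic loess and 0 without background correction, and the median was -0.23 under median scaling. In WT none was higher, beside 8.62% of all genes, and 3 were lower, beside 7.82%. The 3 were Cox7a1, Cox8b and Cox6a2, at -0.97, -0.82 and -0.65.

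In the mutant the 2 higher members were Ndufs3, at 0.71, and Ndufaf6, which was at least 1.26-fold higher at 24 h and dim at 3 h. The second Ndufs3 probe gave -0.18. The lower one was Ndufa4l2, with a log2 level of 8.39 on the mutant array at 24 h, against 8.99 at 3 h, 1.51-fold lower. Ndufs4 and Atp5c1 followed at -0.57 each, then Cox7a2l, which helps to join complexes III and IV into supercomplexes, at -0.54. The muscle forms were lower here too, at -0.49 for Cox6a2, -0.44 for Cox7a1 and -0.28 for Cox8b. The skeletal muscle markers had a median of -0.68. Of the 23 markers 14 were lower by at least 1.5-fold and 2 were higher, and the differences ran from -1.74 to 1.19. The general forms Cox8a, Cox6a1 and Cox7a2 differed by 0.25, 0.24 and 0.10, of which that of Cox6a1 was -0.01 with median scaling.

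In WT the highest members above background on both arrays from 3 h to 24 h were Ndufa8 at 0.43, Atp5d and Ndufb7 at 0.38 each, Sdhd at 0.37 and Ndufv1 at 0.35. Among the same members the lowest after the muscle forms were Ndufa1 at -0.38 and Ndufs1 at -0.32. For 74 members above background on the 4 irradiated arrays, the change in the mutant minus the change in WT had a median of -0.04 and ran from -0.70 for Atp5a1 to 0.80 for Ndufs3. It was below 0 for 41 of the 74 members (55.4%), against 50.7% of the 4782 genes above background on those arrays.

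**Figure D3:**
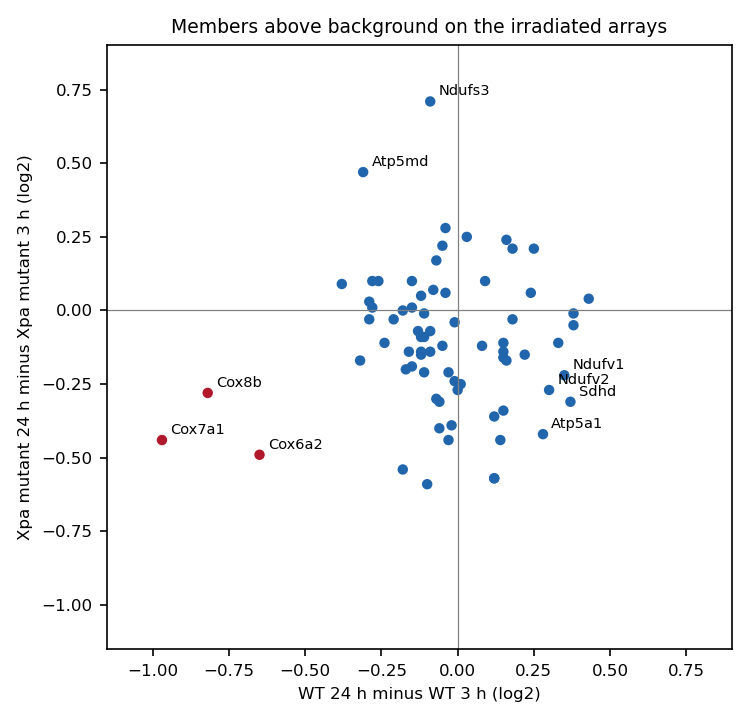
Change from 3 h to 24 h after UVB of each of the 74 members above background on the 4 irradiated arrays, as a difference of normalized log2 intensity, in the Xpa mutant (vertical axis) and in WT (horizontal axis). The muscle forms (red) are lower at 24 h in both genotypes, Ndufs3 (0.71 in the mutant) and Atp5md lie in the upper left, and Atp5a1, Sdhd, Ndufv2 and Ndufv1 in the lower right, lower at 24 h in the mutant and higher in WT.

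The bright members were set beside other genes by a comparison chosen after the values were seen, over genes above background on all 5 arrays with a mean log2 level of at least 9.04. These were 55 members and 1031 genes in all. The cut was the lower quartile of the members' own mean levels. Cox7a1, Cox6a2, Ndufs3 and Ndufa4l2 fell below the cut. Between WT at 24 h and WT without UVB, 1.82% of the bright members differed by at least 1.5-fold, which is Cox8b alone, against 18.8% of the bright genes. None of the 55 did so in the mutant against WT, where 17.1% of the bright genes did at 24 h and 4.27% at 3 h, and none in WT at 3 h against no UVB, where 8.05% did. Without the cut, 4.11% of 73 members and 11.2% of 4644 genes were past 1.5-fold in WT at 24 h against no UVB. In the mutant against WT at 24 h these shares were 2.74% and 8.74%. The difference in spread was not tested.

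Genes that work beside the respiratory chain were read from lists of other pathways. The tricarboxylic acid cycle, which supplies NADH and succinate, had a median log2 difference of 0.24 over 15 genes in the mutant against WT at 3 h, with 12 above 0 and none past 1.5-fold. It had -0.07 in WT at 24 h against no UVB. Fatty acid oxidation had 0.31 over 16 genes in the mutant against WT at 3 h, with 14 above 0. Glycolysis had as high a median in that comparison, 0.31 over 13 genes, with 12 above 0 and 1 below. Electron carriers and inner membrane transporters had 0.25 over 16 genes, with 13 above 0 and 2 below. Mitochondrial import and cytoplasmic ribosome genes had 0.06 and -0.05. In WT at 24 h against no UVB all 13 fatty acid oxidation genes compared were below 0, with a median of -0.27. Eci1, an isomerase of unsaturated fatty acids, had a log2 level of 8.34 on the WT array at 24 h, against 9.11 on the unirradiated WT array.

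The 16 electron carriers and inner membrane transporters compared had a median log2 difference of -0.12 in WT at 24 h against no UVB, with 7 above 0 and 9 below, 1 higher by at least 1.5-fold and none lower. They hold 1 pair of a muscle and a general form. Slc25a4, the adenine nucleotide carrier of heart and skeletal muscle, had a log2 level of 11.02 on the WT array at 24 h, against 11.60 on the unirradiated WT array, a difference of -0.58. Slc25a5, its general form, had 11.86, against 11.56, a difference of 0.30. In the mutant against WT, Slc25a4 differed by 0.74 at 3 h and 0.64 at 24 h. Another such pair lies in glycolysis, whose 14 genes had a median of 0.02 in WT at 24 h against no UVB. Pgam2, the muscle form of phosphoglycerate mutase, had 9.42 on the WT array at 24 h, against 10.89 on the unirradiated WT array, 2.77-fold lower. Its general form Pgam1 had 11.06, against 10.18, 1.85-fold higher. Pdss1, which makes the side chain of ubiquinone, had 8.95 on the WT array at 24 h, against 8.13 on the unirradiated WT array. At 24 h it had 7.76 on the mutant array, against 8.95 on the WT array.

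Genes that build mitochondria had medians above 0 in WT at 24 h, and their difference from the members was not tested. The mitochondrial ribosome genes had a median log2 difference of 0.25 over 58 genes in WT at 24 h against no UVB, with 44 above 0 and 6 higher by at least 1.5-fold. Mitochondrial import genes had a median of 0.38 over 17 genes, with 16 above 0 and 2 higher by at least 1.5-fold. Of all genes compared, 8.42% were higher by at least 1.5-fold, so these counts past 1.5-fold are near the background. Tomm22, a receptor of the outer membrane translocase, had a log2 level of 9.74 on the WT array at 24 h, against 9.15 on the unirradiated WT array. In the mutant against WT at 24 h the mitochondrial ribosome genes had a median of -0.18, with 42 of 57 below 0, and the import genes -0.10.

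Regulators of mitochondrial biogenesis were mostly dim, with 9 of 19 above background on any array. Tfam, which packages mitochondrial DNA and starts its transcription, had a log2 level of 9.47 on the WT array at 24 h, against 9.14 on the unirradiated WT array. On the mutant array at 24 h it had 8.90, a difference of -0.57 from WT at 24 h. Assembly factors of complexes II to V outside the naming rule were above background for 9 of 15 genes, and none of the 6 compared in WT at 24 h against no UVB was past 1.5-fold. The cytoplasmic ribosome genes had medians between -0.05 and 0.13 in the 6 comparisons.

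**Figure D4:**
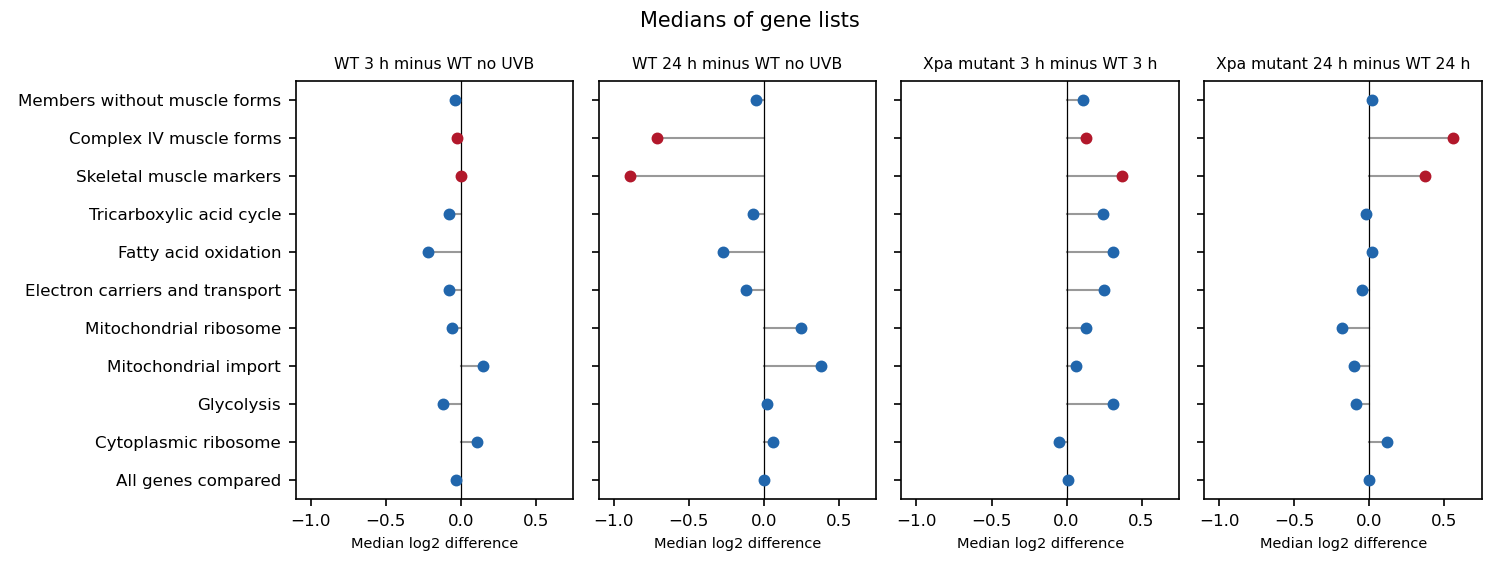
Median difference of normalized log2 intensity (horizontal axis) of the members, of pathway lists and of the skeletal muscle markers (rows) in 4 comparisons of 2 arrays each. Red marks the muscle forms of complex IV and the skeletal muscle markers, which lie at -0.71 and -0.89 in WT at 24 h, while the members without muscle forms lie between -0.05 and 0.11 in these comparisons.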

How the data were processed

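Messenger RNA in back skin was measured with 5 one-colour CodeLink arrays, 1 per group. Per the file headers, the deposited scanner tables were made with CodeLink Expression Analysis 5.0.0.31312 and hold, for 36227 spots, the mean spot intensity, the median background intensity and a quality flag. The authors also deposited a table of normalized intensity, equal to the series' matrix in 181135 of 181135 cells, with a median of 46.26 on each array, a linear scale, no centring per gene and a lowest value of 0.001. For this normalization the software was not given in the sources used.

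The background of the scanner values was removed by normexp with an offset of 50 (limma 3.58.1, R 4.3.3). Spots masked or flagged I or P on any array were left out, and 34743 gene probes were quantile normalized and taken to log2. Spots with the scanner flag C were kept. Among them were those of Cox7a1 and Cox6a2 on the mutant array at 24 h and of Cox6a2 on the unirradiated WT array. The brightest probe stood for a gene. Probes were named through the platform annotation, or through a RefSeq accession (533 probes). Of the kept probes 678 had several symbols and 12061 none, and these were not named. Genes above background on at least 1 of 2 arrays were compared in 6 comparisons, without tests, with pandas 2.3.3 and numpy 2.4.6 under Python 3.11.15. Median background was between 92 and 94 intensity units on every array, and the number of arrays limits the precision. Where the dimmer array was below background, a fold is a bound: the brighter value over the higher of the dim value and the lowest level above background on the dim array. Counts rest on log2 differences, so a counted gene can have a bound under 1.5-fold. The counting code was checked on simulated arrays.

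Named genes were, per comparison, the 5 highest and 5 lowest members above background on both arrays, with the muscle and general forms, the Sdh genes, and every member past 2-fold. Of other lists the 2 highest and 2 lowest could be named. Names outside this rule (Ndufa11, Ndufab1 beyond its 2-fold difference, Ndufaf6, Uqcrb, Uqcr11, Uqcrc2, Uqcrfs1, Uqcrh and marker genes that were dim) were chosen after their values were seen. The members and lists were chosen with earlier results of these data known. The alternatives were the authors' table, no background correction, median scaling, cyclic loess, centring, 3 filters on dim probes, the mean of probes, and members without the muscle forms, without assembly factors, or with genes named through an accession, the last chosen after seeing the data.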

Additional observations from a re-analysis of the deposited data

Results flagged for a closer look

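For 5 members the change from 3 h to 24 h went one way in the Xpa mutant and the other way in WT, with each change at least 0.20 on the log2 scale, the size that the spread between control spots gives for a difference of 2 spots. That spread was taken within an array and leaves out differences between arrays and animals. With 1 array per group these changes were not tested. Atp5a1, the alpha subunit of ATP synthase, changed by -0.42 in the mutant and by 0.28 in WT, a difference of changes of -0.70. Sdhd, a membrane anchor of complex II, changed by -0.31 in the mutant and by 0.37 in WT, a difference of -0.67. Ndufv2 and Ndufv1, which together take electrons from NADH, changed by -0.27 and -0.22 in the mutant and by 0.30 and 0.35 in WT, differences of -0.57 and -0.56. Atp5md, a small membrane subunit of ATP synthase, went the other way, with 0.47 in the mutant and -0.31 in WT, a difference of 0.78. In all, 36 of 74 members (48.6%) changed in opposite directions in the 2 genotypes, against 44.0% of the 4782 genes above background on the irradiated arrays. The 5 members named are 6.76% of the 74, against 10.3% of all these genes by the same measure.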

How the results depend on the processing

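Under 12 other settings, 180 medians and counts of members stayed close to those given, 34 moved and 2 changed sign. Of the differences of single named genes 612 stayed close and 30 moved; that of Atp5c1 in the mutant against WT at 3 h turned to -0.15 with the mean of probes. The median in WT at 3 h against no UVB was 0.06 with median scaling, and that of the mutant against WT at 24 h was -0.03 with the authors' table, both opposite in sign to the values given. The median in the mutant from 3 h to 24 h was -0.23 with median scaling. The cause was not tested. Members higher by at least 1.5-fold in WT at 24 h against no UVB were 2 with loess, and 0 with genes above background on both or on all 5 arrays or with subunits only. In WT at 3 h they were 1 with centring or loess. In the mutant against WT at 3 h they were 2 with loess or median scaling and 0 with either stricter filter, the mean of probes or no background correction. In the mutant against WT at 24 h they were 1 with the mean of probes, no background correction or without the muscle forms. In the mutant from 3 h to 24 h they were 4 with no filter and 1 with either stricter filter, the mean of probes, no background correction or subunits only. Members lower in WT at 24 h were 1 against no UVB and 0 against 3 h without the muscle forms. In WT at 3 h they were 3 with no filter and 0 with either stricter filter or the mean of probes. In the mutant against WT they were 1 at 3 h and 1 at 24 h with no filter. In the mutant from 3 h to 24 h they were 3 with centring, 4 with loess, 5 with median scaling and 0 with no background correction. Leaving out an array leaves no comparison.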

Other observations

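The probes that matched the naming rule but carried several gene symbols, and so name no gene, had log2 levels well above background on all 5 arrays. The probe annotated to Ndufa4 and Zfp593 had 11.85 and 12.16 on the mutant arrays 3 h and 24 h after UVB, against 11.96, 11.99 and 12.33 on the WT arrays without UVB, at 3 h and at 24 h. Ndufb10 was named only through a RefSeq accession and is not a member. It had 10.31 and 10.02 on the mutant arrays 3 h and 24 h after UVB, against 10.16, 9.93 and 10.12 on the WT arrays without UVB, at 3 h and at 24 h.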
